A study of Homo sapiens with 6 samples.

Results

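The genes described here are 56 genes of DNA replication and DNA repair, measured in cells labelled SKOV3, an ovarian carcinoma line, after exposure to the chemokine CCL20. They were taken by symbol from a list that spans replication licensing, the replication fork, nucleotide supply and the main repair pathways, and all 56 were found among the 20030 gene symbols of the tables. RNA was sequenced from 6 samples. Of these, 3 were of SKOV3 cells given recombinant human CCL20 (rhCCL20) in 5% trehalose for 24 h, and 3 were of SKOV3 cells given the vehicle, 5% trehalose, for 24 h. No other allele, agent or genotype is given for either group. The comparison asks how the mRNA profile of the line changes with rhCCL20, and for these genes it bears on how the cells are equipped for platinum damage.

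Before S phase, the MCM2-7 ring is loaded on origins by CDC6 and CDT1, and CDC45 and the GINS complex then turn it into the active helicase. The fork is copied by polymerases alpha, delta and epsilon on the PCNA clamp, with deoxynucleotides supplied by ribonucleotide reductase and thymidylate synthase. Platinum drugs form intrastrand adducts and interstrand crosslinks in DNA, which are removed mainly by nucleotide excision repair and by the Fanconi pathway with homologous recombination, and ovarian carcinomas with lost homologous recombination are known for their sensitivity to platinum and to PARP inhibitors.

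Many replication genes are known targets of E2F transcription factors, and of the motifs searched here the E2F site was the one whose share among the members differed most from that among all tested genes. Windows from 250 bases before to 50 after an annotated start were read from RefSeq on GRCh38.p14 for 51 of the 56 genes, with 1.51 windows per gene for the members and 1.45 for all tested genes. MCM4, MCM5, FANCI, XRCC5 and PRKDC had no window. TTTCCCGC or TTTGGCGC, on either strand, stood in the windows of 17 of 51 members (33.3%), against 5.02% of the 8230 tested genes with a window and 3.73% of all 14994 symbols with one. The stretches below carry the matches in some of the members, each in the direction of its gene, with the match in capitals. GCGGGAAA and GCGCCAAA are the same motifs read on the other strand.
MCM6 (chr2:135876500-135876621, minus strand): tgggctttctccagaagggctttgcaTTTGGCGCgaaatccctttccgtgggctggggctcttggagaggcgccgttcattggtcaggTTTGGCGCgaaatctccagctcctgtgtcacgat
MCM7 (chr7:100101551-100101610, minus strand): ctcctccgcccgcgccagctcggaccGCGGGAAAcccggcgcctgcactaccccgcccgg
GINS2 (chr16:85688955-85689011, minus strand): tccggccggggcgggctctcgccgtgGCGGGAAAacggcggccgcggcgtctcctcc
PCNA (chr20:5126648-5126707, minus strand): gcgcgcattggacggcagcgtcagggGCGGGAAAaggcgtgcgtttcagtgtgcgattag
POLE (chr12:132687343-132687386, minus strand): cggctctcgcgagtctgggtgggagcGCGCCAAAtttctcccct
TYMS (chr18:657588-657647, plus strand): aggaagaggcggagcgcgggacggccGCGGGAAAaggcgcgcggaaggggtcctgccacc
MCM6, which encodes a subunit of the licensing ring, had 2 matches, at positions -152 and -90 from the start. In TYMS, PCNA and POLE the match began at -39, -59 and -18.

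By role, the E2F match was found in 7 of 10 licensing genes with a window (MCM3, MCM6, MCM7, CDC6, CDT1, GINS1 and GINS2) and in 4 of 7 fork genes (PCNA, POLA1, POLE and LIG1). It was found in 0 of 7 homologous recombination genes, 0 of 4 checkpoint genes and 0 of 6 base excision genes. The remaining matches were in TYMS, FANCC, FANCD2, MSH6, XPC and XRCC6. The 17 genes with a match had a median level of 41.9 FPKM, and the 34 without one 7.10 FPKM, which is a description of these genes and not a test. Role was not held equal in this split. All 22 licensing, fork and nucleotide supply members had a median of 46.2 FPKM, and the 34 repair and checkpoint members 6.71 FPKM. FPKM counts the fragments of a gene after scaling to transcript length and library total, so levels of different genes can be set side by side. A CCAAT box (CCAAT) stood in 30 of 51 windows (58.8%, against 43.8% of tested genes) and a GC box (GGGCGG) in 80.4%, against 79.3% of tested genes. An NF-kB motif (GGGA, any base N, then TTTCC) was in 0 of 51 windows, where 0.765% of the tested genes had it. All motifs were searched on both strands, and a match or its absence concerns these letters in this window.

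**Figure D1:**
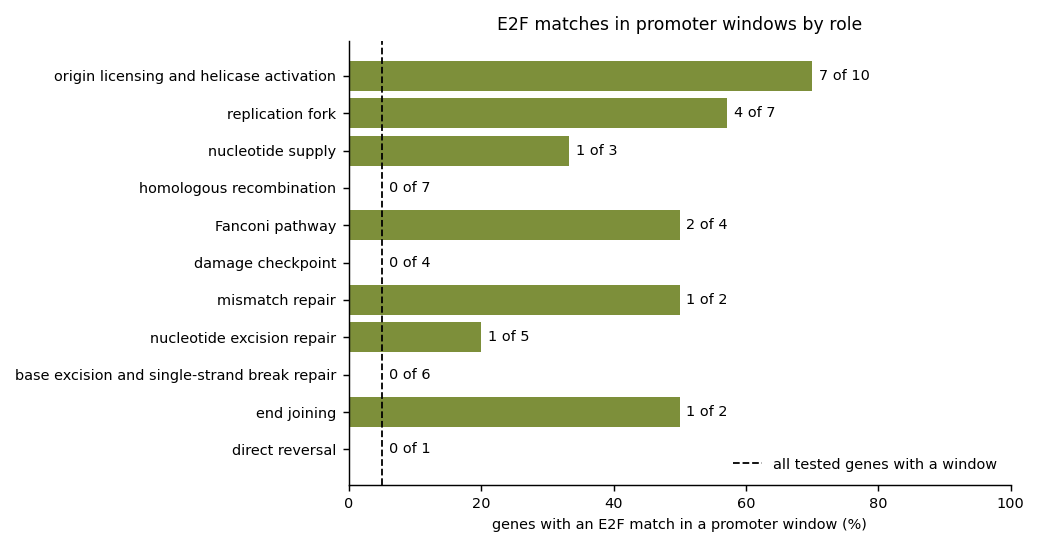
Share of the genes of each role, in percent of those with a promoter window, that hold an E2F match; the labels give genes with a match of genes with a window, and the dashed line is the share over all tested genes, 5.02%. Licensing genes reach 7 of 10 and fork genes 4 of 7, and homologous recombination, checkpoint, base excision and direct reversal genes have none.

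The 6 libraries were alike in their totals, with a summed FPKM of 301805 to 310080 and 10191 to 10238 genes at or above 1 FPKM. The depth is unknown, since FPKM hides it. Depth relative to vehicle replicate 1 was estimated from the most common ratio, gene by gene, of low values between a library and that one. The estimate was 1.01 to 1.09 in the rhCCL20 libraries and 0.947 to 1.00 in the vehicle libraries. The labels do not say whether replicates were separate cultures, so the spread behind each p-value may be technical. Of the markers of the line, ERBB2 averaged 7.83 FPKM, although the line is known for its amplification, and CDKN2A, known to be deleted in it, averaged 16.4 FPKM. KRT8 and VIM were high at 641 and 340.1 FPKM, and CDH1, EPCAM, PAX8 and WT1 each averaged at most 0.175 FPKM, so the line is named by its label only. Of 11 leukocyte and blood markers, 8 averaged under 1 FPKM, among them PTPRC at 0.218, and HBB and MS4A1 were listed at 0 in at least 1 library. Their sum was 17.5 to 20.9 FPKM with rhCCL20 and 13.8 to 23.3 FPKM with vehicle. The 3 tested ones were all higher on average with rhCCL20, with log2 fold changes of 0.87 for LYZ, 0.96 for S100A9 (limma adjusted p = 0.937 for both) and 0.039 for CD68. LYZ had 3.58, 2.92 and 4.27 FPKM with rhCCL20 and 5.24, 0.692 and 0.469 FPKM with vehicle, and S100A9 likewise was low in vehicle replicates 2 and 3. The 8 fibroblast and endothelial markers summed to 10.1 to 10.3 FPKM with rhCCL20 and 9.83 to 10.8 FPKM with vehicle. Their part in the results was not tested.

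The third rhCCL20 library stood apart. On the first principal component of all tested genes, with 38.8% of the variance, it lay at 11.7 and the other 5 libraries between -3.96 and -0.74. Where leaving it out turned the sign of a difference named below, or moved it by over 1.5 times, the value without it is given too.

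None of the 56 genes differed between the groups past the threshold. Every member was at or above 1 FPKM in at least 3 libraries and entered the test, limma on log2(FPKM + 1) over 10263 genes with a Benjamini-Hochberg adjusted p of 0.05 as threshold. In this test 0 members rose and 0 fell, where 0.00974% of all tested genes passed (1 gene, GAGE12G, which fell). Adjusted p-values of the members lay between 0.937 and 0.998. At an unadjusted p under 0.05 there was 1 member, RAD51C (1.79% of the members), against 4.73% of all tested genes. The 3 rhCCL20 libraries lay above all 3 vehicle libraries for 4 members (RAD51C, FANCD2, MSH6 and UNG, 7.14%), against 6.88% of all tested genes. They lay below them for 2 members (MCM2 and POLE, 3.57%), against 4.13% of all tested genes. These shares are near the background.

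The log2 fold changes, rhCCL20 over vehicle, had a median of 0.0080 over the members, with 30 above 0 and 26 below. Over all tested genes the median was 0.012. Without rhCCL20 replicate 3 the medians were -0.0014 and -0.0011. Since FPKM + 1 understates changes of low genes, the bounds that follow hold for that scale. The 95% interval of the fold lay within 1.2-fold in either direction for 50 of 56 members (89.3%, against 87.6% of all tested genes), and within 1.5-fold for all 56. It lay within 1.1-fold for 21 members (37.5%, against 24.1%). The 6 members whose intervals reached beyond 1.2-fold were BRCA1, BRCA2, FANCD2, ATM, XPA and MGMT. The median SD within a group was 0.054 log2 units for the members and 0.066 for all tested genes. In bulk RNA, fewer cells in S phase and less mRNA per cell cannot be told apart, and the same holds for any of these levels.

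**Figure D2:**
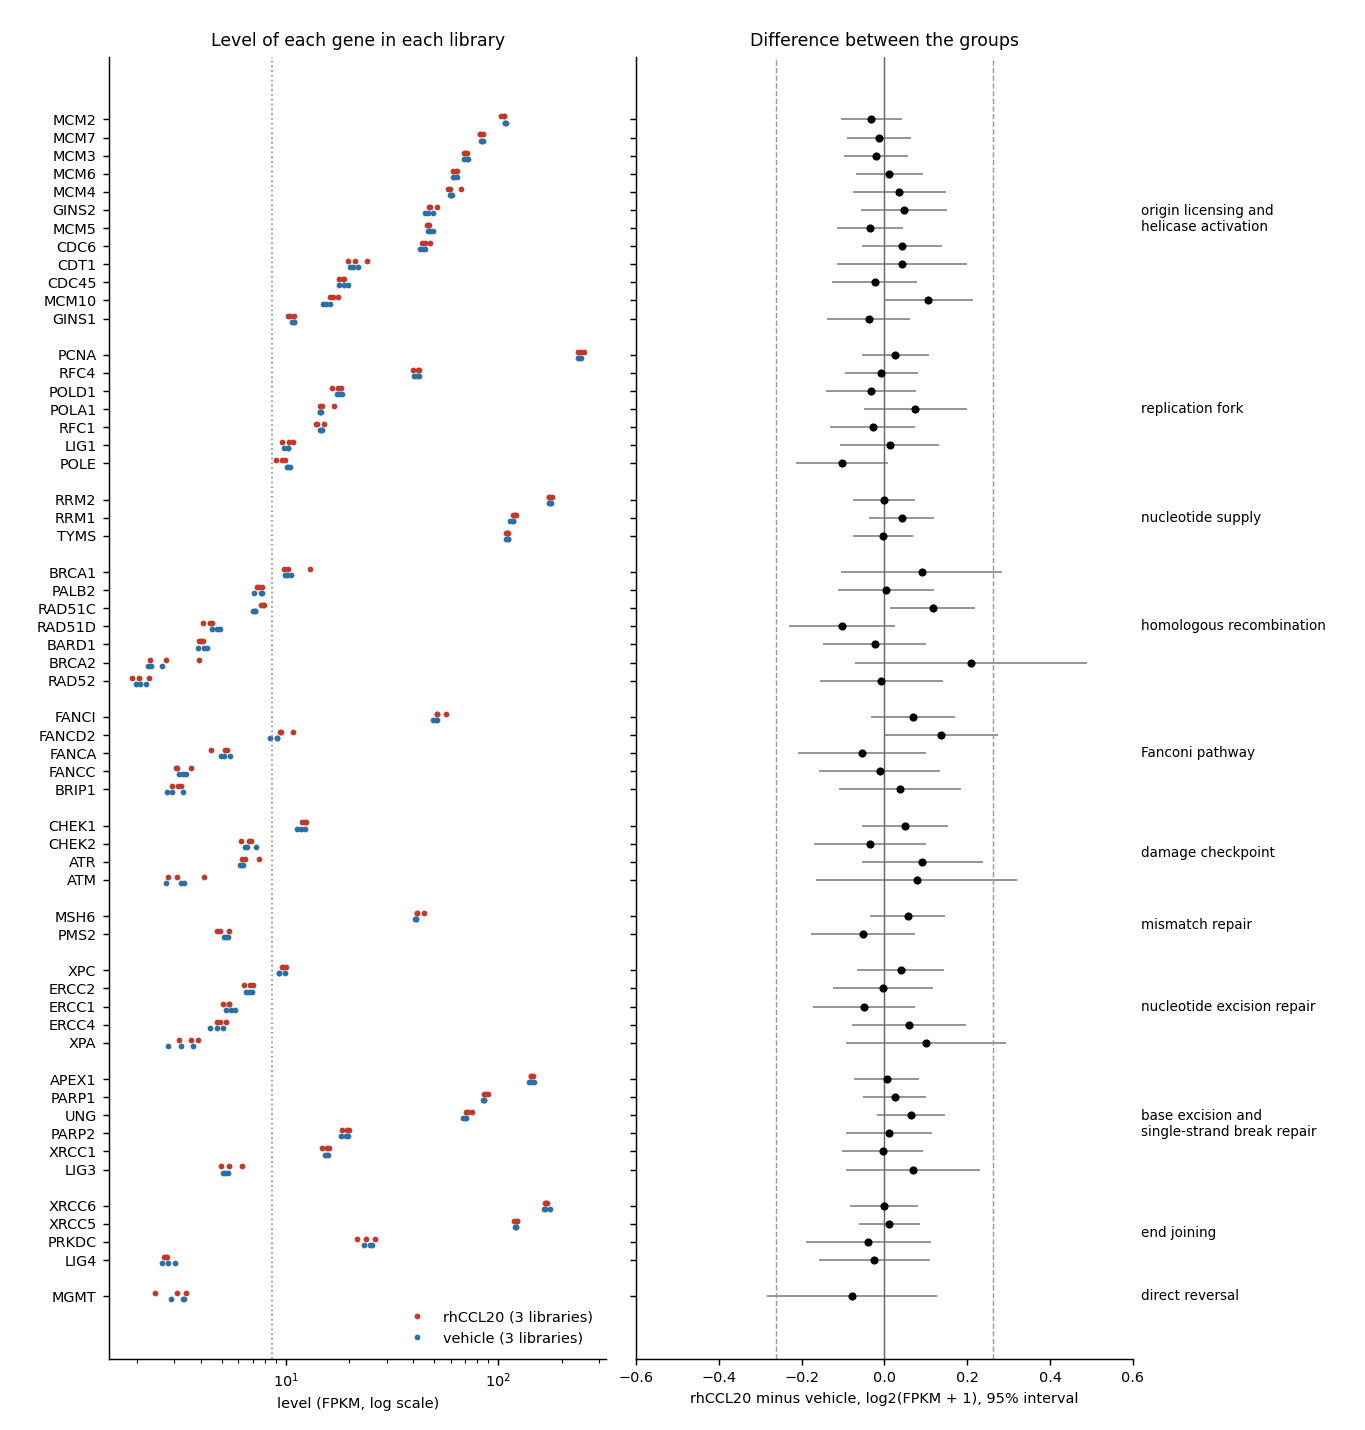
Left, the FPKM of each of the 56 genes in each library on a log scale (red, rhCCL20; blue, vehicle; 3 libraries each; dotted line, the median of all tested genes, 8.62 FPKM). Right, the difference rhCCL20 minus vehicle in log2(FPKM + 1) with its 95% interval from limma, with dashed lines at 1.2-fold; levels run from 2.08 FPKM for RAD52 to 244 FPKM for PCNA, and the intervals of 55 genes include 0, that of RAD51C excepted.

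By mean level, the members ran from percentile 12.3 of the tested genes (RAD52) to percentile 98.3 (PCNA). Mean levels over the 6 libraries were at or above 100 FPKM for 8 members and between 20 and 100 FPKM for 14, whereas 23 lay between 5 and 20 FPKM and 11 below 5 FPKM. PCNA (244 FPKM), RRM2 (176), XRCC6 (169), APEX1 (143), XRCC5 (121), RRM1 (118), TYMS (110.4) and MCM2 (107) made up the highest class. PARP1 averaged 86.8, UNG 71.4, FANCI 52.1, MSH6 41.9 and PRKDC 24.3 FPKM in the next. Of the genes that bear on recombination, crosslink repair and the checkpoint, CHEK1 averaged 12.1, BRCA1 10.6, FANCD2 9.41, PALB2 7.52, RAD51C 7.47 and ATR 6.46 FPKM, with MCM10 at 16.2, XPC at 9.66 and ERCC1 at 5.40 FPKM in the same class. The median member had 14.8 FPKM, against 8.62 FPKM for all tested genes. The 22 genes of licensing, fork and nucleotide supply had a median of 46.2 FPKM, and the 34 repair and checkpoint genes one of 6.71 FPKM. The 11 lowest members were all repair or checkpoint genes, namely ERCC4, RAD51D, BARD1, XPA, FANCC, ATM, MGMT, BRIP1, LIG4, BRCA2 and RAD52. Among these ERCC4 averaged 4.86, XPA 3.38, ATM 3.22, MGMT 3.07 and BRCA2 2.69 FPKM.

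Origin licensing genes averaged from 10.7 FPKM (GINS1) to 107 FPKM (MCM2), and none differed between the groups past the threshold. MCM2, a ring subunit on chromosome 3 (127598223 to 127622436, plus strand, GRCh38), was the highest of the 12, with 107.1, 104 and 106 FPKM in the rhCCL20 libraries and 107.4, 109 and 108 FPKM in the vehicle libraries. All rhCCL20 values were below all vehicle values, by small margins, with a log2 difference of -0.032 (limma adjusted p = 0.937, 95% interval -0.11 to 0.042). The other ring subunits averaged 83.6 FPKM (MCM7), 70.6 (MCM3), 62.9 (MCM6), 60.8 (MCM4) and 47.4 (MCM5) over the 6 libraries. The order of the 6 subunits by level was the same in 5 libraries. In rhCCL20 replicate 3 MCM4 stood above MCM6, and these neighbours did not differ beyond their spread. The highest subunit was 2.18 to 2.32 times the lowest in every library. The protein ring holds 1 copy of each.

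The loaders CDC6 and CDT1 averaged 44.9 and 21.3 FPKM, CDC45 averaged 18.6 FPKM, and the GINS subunits GINS2 and GINS1 averaged 48.1 and 10.7 FPKM. MCM10, a factor needed to start DNA unwinding, had the smallest p among the licensing genes. It had 16.8, 16.1 and 17.7 FPKM with rhCCL20 and 16.2, 15.5 and 15.1 FPKM with vehicle. The groups overlapped, since rhCCL20 replicate 2 lay below vehicle replicate 1. Its log2 difference was 0.11 (limma adjusted p = 0.937, 95% interval -0.0018 to 0.21), and 0.074 without rhCCL20 replicate 3. For MCM4 and CDT1 the small positive differences, 0.036 and 0.042, turned to -0.023 and -0.039 without that library. GINS2 and GINS1, 2 subunits of 1 complex, had a ratio of 4.64 ± 0.069 with rhCCL20 and 4.36 ± 0.18 with vehicle (SD, n = 3 each).

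At the fork, PCNA, the sliding clamp that holds polymerases and repair enzymes on DNA, was the highest of all members. Its gene lies on chromosome 20 (5114953 to 5126626, minus strand). It had 247, 253 and 239 FPKM with rhCCL20 and 239, 246 and 240.0 FPKM with vehicle. The groups overlapped, with 2 of the 3 rhCCL20 libraries above all vehicle libraries and rhCCL20 replicate 3 below them (log2 fold change 0.026, 95% interval -0.055 to 0.11). Without that library the log2 fold change was 0.047. The clamp loader subunits RFC4 and RFC1 averaged 41.4 and 14.6 FPKM. The catalytic polymerase genes POLD1, POLA1 and POLE averaged 17.7, 15.0 and 9.90 FPKM, and LIG1, which joins Okazaki fragments, 10.2 FPKM.

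POLE, the leading-strand polymerase, was the member with the lowest fitted difference. It had 9.64, 8.98 and 9.92 FPKM in the rhCCL20 libraries and 10.47, 10.1 and 10.3 FPKM in the vehicle libraries. All 3 rhCCL20 values were below the vehicle values. The log2 difference was -0.10 (limma adjusted p = 0.937, 95% interval -0.21 to 0.0075), and -0.13 without rhCCL20 replicate 3. POLA1, the polymerase that starts each fragment with primase, had a difference of 0.075, which was 0.013 without that library.

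Nucleotide supply genes were among the most abundant members. RRM2, the small subunit of ribonucleotide reductase whose level follows S phase, had 174, 173 and 179.7 FPKM with rhCCL20 and 176, 177 and 175 FPKM with vehicle. RRM1, the large subunit, had 117, 121 and 122 FPKM with rhCCL20 and 118.1, 118.2 and 114 FPKM with vehicle. In both genes the groups overlapped, and the intervals were -0.076 to 0.073 for RRM2 and -0.037 to 0.12 for RRM1 on the log2 scale. The RRM2 to RRM1 ratio was 1.46 ± 0.025 with rhCCL20 and 1.51 ± 0.026 with vehicle (SD, n = 3 each). TYMS, thymidylate synthase and the target of fluoropyrimidines, averaged 110.2 ± 0.89 FPKM with rhCCL20 and 110.5 ± 1.3 FPKM with vehicle (SD, n = 3 each). Its exons overlap those of ENOSF1 on the other strand, and the strand setting of the counting is not given in the sources used here.

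Homologous recombination genes were expressed at low to moderate levels, and RAD51C had the smallest p of all members. RAD51C, which acts in strand exchange on resected DNA, lies on chromosome 17 (58692573 to 58735611, plus strand). It had 7.82, 7.95 and 7.68 FPKM in the rhCCL20 libraries and 7.17, 7.02 and 7.20 FPKM in the vehicle libraries. Every rhCCL20 value was above every vehicle value, and the spread within groups was small (7.82 ± 0.13 with rhCCL20 and 7.13 ± 0.097 with vehicle, SD, n = 3 each). The log2 difference was 0.12 (limma adjusted p = 0.937, 95% interval 0.015 to 0.22, SE 0.046). It was 0.13 without rhCCL20 replicate 3, so it was as large without that library. With 3 libraries in each group, the smallest p of an exact test is 0.1.

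BRCA1, the checkpoint and recombination scaffold, and BRCA2, which acts in strand exchange, were high in rhCCL20 replicate 3. BRCA1, on chromosome 17 (43044295 to 43170245, minus strand), had 10.3, 9.81 and 13.0 FPKM with rhCCL20 and 10.2, 9.92 and 10.6 FPKM with vehicle. BRCA2, on chromosome 13 (32315474 to 32400266, plus strand), had 2.74, 2.29 and 3.91 FPKM with rhCCL20 and 2.33, 2.24 and 2.62 FPKM with vehicle. In both genes rhCCL20 replicate 3 was the highest library, 1.28 times the mean of the other 5 for BRCA1 and 1.60 times for BRCA2, and the other rhCCL20 libraries lay among or close to the vehicle values. The log2 fold change of BRCA2, 0.21 (95% interval -0.072 to 0.49, limma adjusted p = 0.937), had the largest size of all members and was 0.047 without that library. That of BRCA1, 0.090 (-0.10 to 0.28, limma adjusted p = 0.937), was -0.024 without it.

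PALB2, which links BRCA1 to BRCA2, had 7.49, 7.38 and 7.72 FPKM with rhCCL20 and 7.10, 7.66 and 7.77 FPKM with vehicle, with overlapping groups and a difference of 0.0037 log2 units (95% interval -0.11 to 0.12), which was -0.012 without rhCCL20 replicate 3. BARD1, the RING partner of BRCA1, averaged 4.05 FPKM, so that BRCA1 mRNA was 2.75 ± 0.38 times BARD1 mRNA with rhCCL20 and 2.51 ± 0.19 times with vehicle (SD, n = 3 each). RAD51D, of the same family as RAD51C, averaged 4.52 FPKM with a difference of -0.10 (95% interval -0.23 to 0.026) and overlapping groups, and it shares exon bases with a read-through gene on the same strand. RAD52, a single-strand annealing factor, was the lowest member at 2.08 FPKM.

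In the Fanconi pathway the 2 partners of the FANCI-FANCD2 clamp, which closes on DNA at a crosslink, stood far apart. FANCI had 51.7, 51.5 and 57.0 FPKM with rhCCL20 and 51.1, 49.7 and 51.6 FPKM with vehicle. FANCD2, on chromosome 3 (10026414 to 10101930, plus strand), had 9.48, 9.39 and 10.9 FPKM with rhCCL20 and 9.10, 8.49 and 9.15 FPKM with vehicle. The FANCD2 groups did not overlap, those of FANCI did, and in both genes rhCCL20 replicate 3 was the highest library. The log2 difference of FANCD2 was 0.14 (limma adjusted p = 0.937, 95% interval -0.00093 to 0.27), and 0.075 without that library. For FANCI it was 0.069, and 0.022 without it. FANCI mRNA was 5.39 ± 0.13 times FANCD2 mRNA with rhCCL20 and 5.70 ± 0.13 times with vehicle (SD, n = 3 each). FANCI shares exon bases with POLG and FANCD2 with FANCD2OS, both on the opposite strand. The core complex genes FANCA and FANCC averaged 5.09 and 3.26 FPKM, and the helicase gene BRIP1 3.04 FPKM.

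Checkpoint genes were led by CHEK1, the kinase that restrains origin firing and mitosis under ATR, with 12.3, 12.0 and 12.5 FPKM with rhCCL20 and 11.3, 11.8 and 12.3 FPKM with vehicle. ATR, the kinase recruited to single-stranded DNA at stalled forks, had 6.42, 6.24 and 7.47 FPKM with rhCCL20 and 6.22, 6.13 and 6.30 FPKM with vehicle. ATM, the kinase of double-strand breaks, had 3.09, 2.80 and 4.16 FPKM with rhCCL20 and 3.21, 2.74 and 3.34 FPKM with vehicle. The groups overlapped in all 3 genes, and rhCCL20 replicate 3 was the highest library in each. The log2 fold changes were 0.050 for CHEK1, 0.092 for ATR and 0.077 for ATM, with limma adjusted p-values of 0.937 for CHEK1 and ATR and 0.943 for ATM. Without that library they were 0.037, 0.022 and -0.051. ATM shares exon bases with C11orf65 on the other strand. CHEK2, the kinase downstream of ATM, averaged 6.69 FPKM with a difference of -0.035, which was 0.0068 without rhCCL20 replicate 3.

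**Figure D3:**
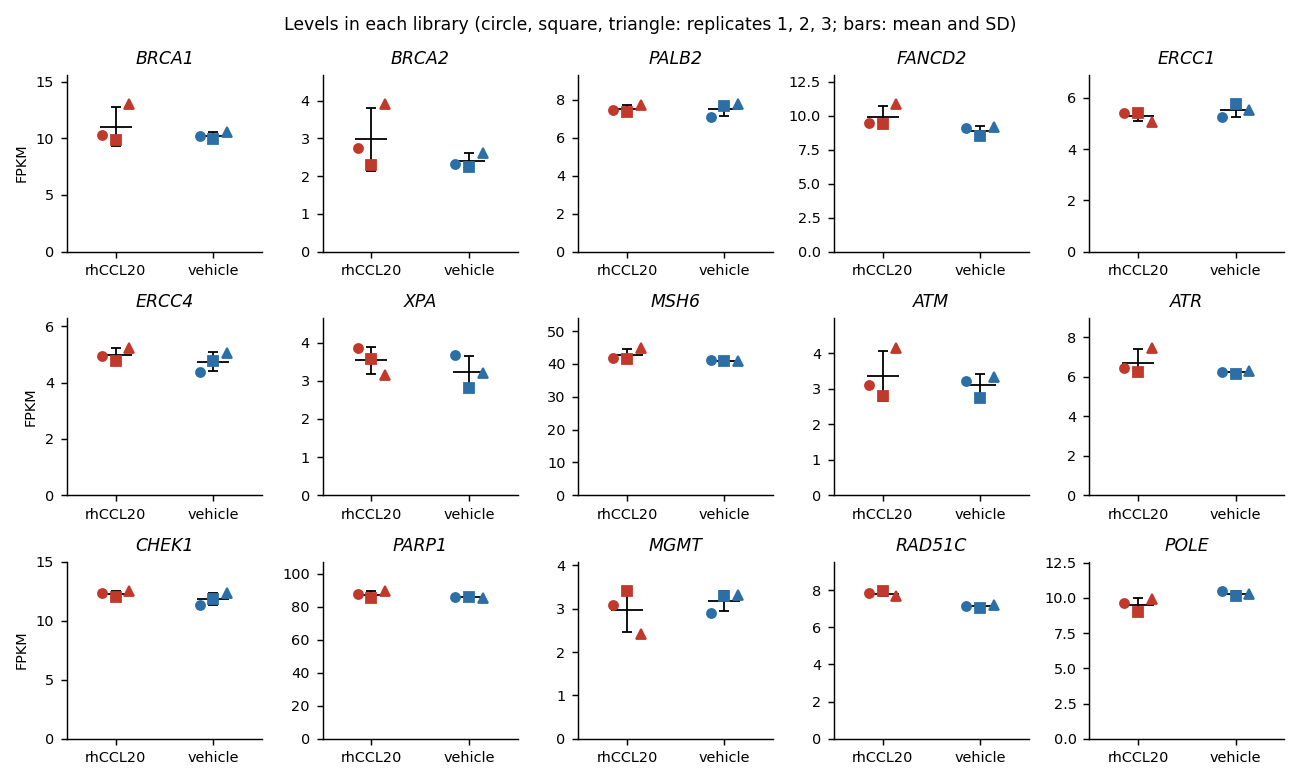
FPKM in each library of 13 members, picked for platinum response or, for MGMT, repair of alkyl damage, and of RAD51C and POLE. Left is rhCCL20 and right is vehicle, with circle, square and triangle for replicates 1, 2 and 3. Bars are mean and SD of 3 libraries, and each axis starts at 0. RAD51C, POLE, FANCD2 and MSH6 separate the groups by small margins. The triangle of rhCCL20 lies above all other points in BRCA1, BRCA2, FANCD2, ERCC4, MSH6, ATM, ATR, CHEK1 and PARP1.

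Mismatch repair, whose loss is known to raise tolerance to cisplatin, was represented by MSH6 and PMS2. MSH6, a mismatch recognition subunit, had 41.7, 41.6 and 45.0 FPKM with rhCCL20 and 41.3, 41.0 and 40.8 FPKM with vehicle. The groups did not overlap, but 2 of the 3 rhCCL20 values were within 1 FPKM of the vehicle values, and the log2 fold change of 0.057 (95% interval -0.034 to 0.15, limma adjusted p = 0.937) was 0.020 without rhCCL20 replicate 3. Its exons overlap those of FBXO11 on the other strand. PMS2, a mismatch repair endonuclease, averaged 5.15 FPKM with a difference of -0.052, which was -0.094 without that library. PMS2 has near-identical pseudogene copies, so its value is uncertain where fragments were split among them.

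The 5 nucleotide excision repair genes among the members were all below 10 FPKM on average. XPC, the damage sensor of the genome-wide branch, was the highest, with 9.61, 9.78 and 10.004 FPKM with rhCCL20 and 9.30, 9.92 and 9.32 FPKM with vehicle. XPA, the scaffold that verifies damage, was the lowest and the most variable, with 3.87, 3.58 and 3.14 FPKM with rhCCL20 and 3.66, 2.81 and 3.21 FPKM with vehicle. The groups overlapped in both genes. The difference of XPA, 0.10 (95% interval -0.092 to 0.29, limma adjusted p = 0.937), was larger, at 0.16, without rhCCL20 replicate 3, which was its lowest rhCCL20 library.

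ERCC1 and ERCC4 encode the 2 subunits of the nuclease that cuts beside an adduct, and ERCC1 has long been studied as a marker of platinum response. ERCC1 had 5.39, 5.41 and 5.06 FPKM with rhCCL20 and 5.24, 5.755 and 5.54 FPKM with vehicle. ERCC4 had 4.93, 4.76 and 5.24 FPKM with rhCCL20 and 4.39, 4.77 and 5.06 FPKM with vehicle. Both genes had overlapping groups, with log2 fold changes of -0.050 (95% interval -0.17 to 0.074) and 0.059 (-0.079 to 0.20). Without rhCCL20 replicate 3 these were -0.023 for ERCC1 and 0.027 for ERCC4. Their mRNAs were thus near parity, at an ERCC1 to ERCC4 ratio of 1.07 ± 0.090 with rhCCL20 and 1.16 ± 0.061 with vehicle (SD, n = 3 each). ERCC1 shares exon bases with CD3EAP on the other strand, so its level may include fragments of that gene. ERCC2, the helicase of the TFIIH complex, averaged 6.73 FPKM. Outside the members, 18 other nucleotide excision repair genes had a median of 15.2 FPKM, and the highest averaged 147 FPKM.

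Base excision repair held some of the most abundant members. APEX1, the endonuclease at abasic sites, had 145, 143.1 and 142.6 FPKM with rhCCL20 and 147, 142.3 and 139.9 FPKM with vehicle. UNG, which removes uracil from DNA, had 72.6, 70.9 and 75.5 FPKM with rhCCL20 and 70.5, 70.1 and 68.7 FPKM with vehicle. PARP1, the sensor of strand breaks and target of PARP inhibitors, had 87.6, 85.5 and 89.6 FPKM with rhCCL20 and 86.3, 86.3 and 85.4 FPKM with vehicle. Only the UNG groups did not overlap among these 3 genes, with a difference of 0.065 log2 units (limma adjusted p = 0.937, 95% interval -0.017 to 0.15), and 0.041 without rhCCL20 replicate 3. PARP1 had 0.025 (-0.051 to 0.10) and APEX1 0.0051 (-0.073 to 0.083), both within 1.1-fold. Without that library they were 0.0085 for PARP1 and 0.011 for APEX1. PARP2 averaged 19.2 FPKM, so PARP1 mRNA was 4.55 ± 0.24 times PARP2 mRNA with rhCCL20 and 4.50 ± 0.19 times with vehicle (SD, n = 3 each). XRCC1, the scaffold of single-strand break repair, averaged 15.6 FPKM. Its partner ligase LIG3 averaged 5.38 FPKM with a difference of 0.070 that was -0.0057 without rhCCL20 replicate 3.

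End joining genes were split between an abundant break sensor and a scarce ligase. XRCC6 and XRCC5 encode Ku70 and Ku80, the 2 chains of the ring that binds broken ends. XRCC6 had 169, 169.7 and 167 FPKM with rhCCL20 and 167, 175 and 164 FPKM with vehicle, and XRCC5 averaged 121 FPKM. The XRCC6 to XRCC5 ratio was 1.38 ± 0.029 with rhCCL20 and 1.40 ± 0.041 with vehicle (SD, n = 3 each). PRKDC, the kinase activated by Ku, had 23.9, 21.6 and 26.5 FPKM with rhCCL20 and 25.1, 23.3 and 25.4 FPKM with vehicle. The groups overlapped in both genes, and the log2 fold changes were -0.0012 for XRCC6 and -0.039 (95% interval -0.19 to 0.11, limma adjusted p = 0.967) for PRKDC. Without rhCCL20 replicate 3 they were 0.0062 for XRCC6 and -0.11 for PRKDC. LIG4, which seals the ends, averaged 2.77 FPKM, with a difference of -0.025.

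MGMT, which removes alkyl groups from guanine in a single step, lies on chromosome 10 (129467184 to 129768007, plus strand). It had 3.08, 3.41 and 2.42 FPKM with rhCCL20 and 2.91, 3.29 and 3.32 FPKM with vehicle. The groups overlapped, with rhCCL20 replicate 3 the lowest library at 0.756 times the mean of the other 5. The log2 fold change of -0.078 (95% interval -0.28 to 0.13, limma adjusted p = 0.937) was 0.025 without that library.

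The third rhCCL20 library was thus the highest library for 27 of 56 members (48.2%), where it was the highest for 37.1% of all tested genes. Its departure went with transcript length and, among the members, also with low GC content. Transcripts were grouped by the longest annotated protein-coding transcript of each gene. For the 15 members of at least 5000 nucleotides, its log2(FPKM + 1) lay above the mean of the other 5 libraries by a median of 0.15, and 13 of the 15 were above 0. The median was 0.051 for the 25 members of 3000 to 5000 nucleotides and -0.014 for the 16 shorter ones. Over all tested genes the same medians were 0.11, 0.043 and -0.021. Spearman's rho between this departure and transcript length was 0.59 over the 56 members and 0.475 over 10168 tested genes, which are genes of 1 library and not replicates. For the GC content of the transcript, rho was -0.357 over the members and -0.0388 over the tested genes. How much of the departure goes with length and how much with GC content was not tested. Among the longest members, ATM (13147 nucleotides) had 1.37 times and BRCA2 (11986 nucleotides) 1.60 times the mean of the other libraries, whereas PRKDC (13509 nucleotides) had 1.11 times and RAD51D (9988 nucleotides) 0.968 times. What made the library differ was not tested. Without it, 13 of the 56 log2 fold changes changed sign, and the largest of these in the full data was that of BRCA1.

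**Figure D4:**
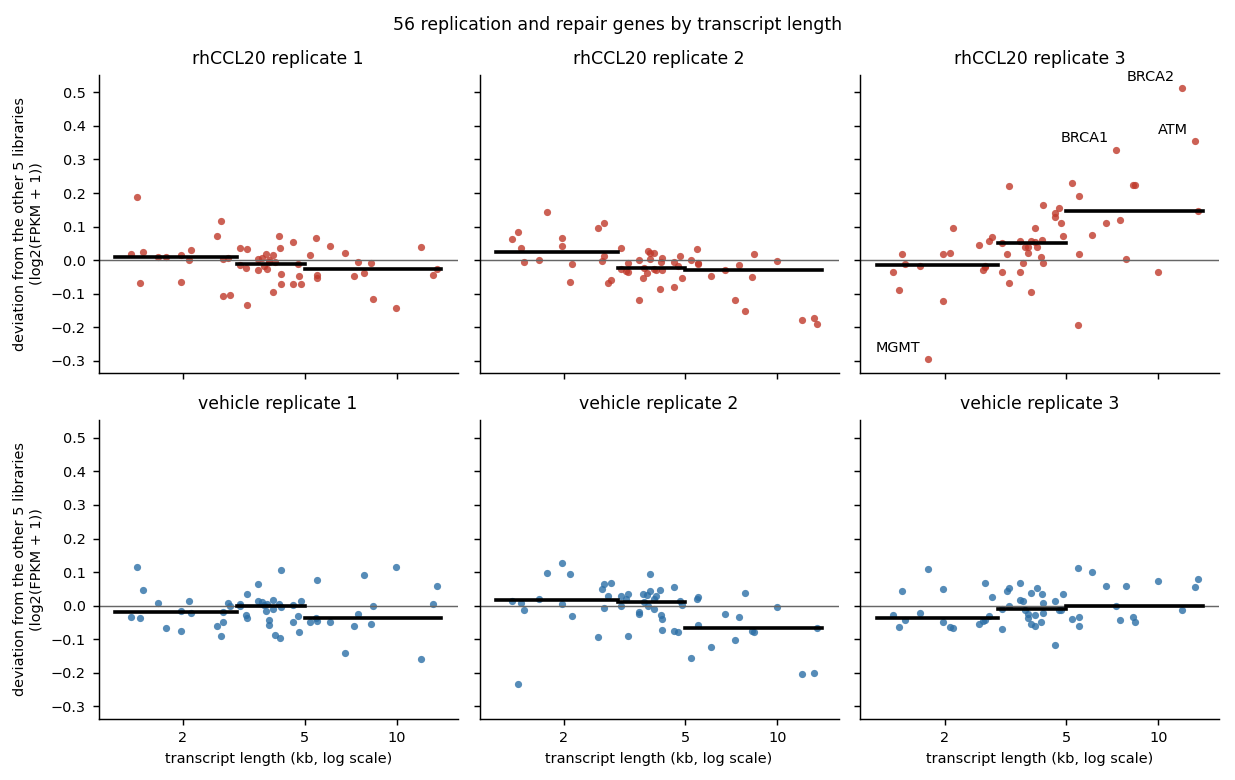
Deviation of each of the 56 genes in one library from the mean of the other 5, in log2(FPKM + 1), against transcript length in kb on a log scale, 1 panel per library (top, rhCCL20; bottom, vehicle). Black bars are medians of transcripts under 3 kb, 3 to 5 kb and at least 5 kb; in rhCCL20 replicate 3 they climb to 0.15, with BRCA2, ATM and BRCA1 highest and MGMT lowest.

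Beyond the 56, 150 other replication and repair genes were looked at, of which 147 entered the test. Of these 0 rose and 0 fell past the threshold, and 5 had an unadjusted p under 0.05 (PARP3, XRCC2, RMI2, DDB2 and MPG). That is 3.40% of the 147, against 4.73% of all tested genes. Their median log2 fold change was 0.0058. The gene with the smallest p was PARP3, a PARP of double-strand break repair, at 5.04 ± 0.088 FPKM with rhCCL20 and 5.69 ± 0.13 FPKM with vehicle (SD, n = 3 each; limma adjusted p = 0.937). XRCC2, a homologous recombination gene, had 8.91 ± 0.24 FPKM with rhCCL20 and 10.1 ± 0.69 FPKM with vehicle (SD, n = 3 each). Its difference of -0.16 was opposite in sign to that of RAD51C. In the other lists the smallest p belonged to DDB2 (-0.087, a sensor of ultraviolet damage), RFC3 (0.093, a clamp loader subunit), RRM2B (0.11, another small subunit of ribonucleotide reductase), FANCF (-0.18, of the Fanconi core complex), CDC25C (0.095, a phosphatase that opens mitosis), MLH3 (0.11, or 0.062 without rhCCL20 replicate 3, of mismatch repair) and XRCC4 (-0.12, the partner of LIG4). None of them passed, each with a limma adjusted p of 0.937. RAD51B, NEIL1 and POLI averaged 0.485, 0.107 and 0.644 FPKM and were not tested.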

How the data were processed

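Total RNA extracted with Trizol was made into libraries with an Illumina TruSeq RNA kit, per the labels' protocols. The authors deposited FPKM values per gene symbol and library, per the file headers, with no pooled replicates. Trimmomatic, HISAT2, Cufflinks, HTSeq and the build GRCh38 are named per the submitters' processing notes, which give neither versions nor roles. The annotation, the strand setting and the totals of fragments were not given in the sources used here, hence unknown depth and no interval for counting error.

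A gene was tested where 3 or more libraries had 1 FPKM or more. The test was limma 3.58.1 in R 4.3.3 on log2(FPKM + 1), by group alone, using eBayes with its trend option. Calls used a Benjamini-Hochberg adjusted p under 0.05 over all genes tested, and 95% intervals come from limma. The procedure was tested on simulated data with independent noise and no library that stood apart, unlike the data here. Positions, transcript lengths and exon overlaps are from GENCODE release 29 on GRCh38. The authors may have used another annotation. By GENCODE, 19 of the 56 genes share exon bases with another protein-coding gene. Promoter windows are from RefSeq.

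The members, lists, roles and alternatives were chosen with earlier results of these data known. Every member gets its mean level. Values in each library are given for the highest member and the member with the smallest p of each of 11 roles, for members past the threshold or under the filter, and for BRCA1, BRCA2, PALB2, FANCD2, ERCC1, ERCC4, XPA, MSH6, ATM, ATR, CHEK1, PARP1 and MGMT. Of each wider list, the genes past the threshold, or else the gene with the smallest p, and those under the filter are named. E2F1, MKI67 and the wider genes with an unadjusted p under 0.05 were named beyond this rule. Alternatives were a pseudocount of 0.1, no filter, a filter at 5 FPKM, quantile and median ratio normalization, eBayes without trend, a replicate block, leaving out each library and, added after the data were seen, removing what goes with GC content and transcript length.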

Additional observations from a re-analysis of the deposited data

How the results depend on the processing

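In none of the 14 alternatives did a member pass the threshold, and the smallest adjusted p of a member was 0.716, without rhCCL20 replicate 2. Over all tested genes, 1 passed, against 0 with no filter on low values (861 with an unadjusted limma p under 0.05) and 1 to 3 when single libraries were left out, the 3 without vehicle replicate 1. The median log2 fold change of the members lay between -0.0014 and 0.017 when single libraries were left out and was -0.0038 under median ratio scaling, against 0.0080. With the replicate number as a block, 1 gene and 0 members passed, the median stayed at 0.0080, and 3 members had an unadjusted p under 0.05 (BRCA2, RAD51C and FANCD2), against 1. That is 5.36% of the members, where 5.34% of all tested genes had such a p with the block. Deviations from the group means correlated at -0.101, 0.0346 and 0.0969 between same-numbered libraries. Between libraries of different number the correlations ran from -0.119 to 0.131. With so few libraries these values cannot decide whether the numbers pair them, and the labels do not say. RAD51C had an unadjusted limma p under 0.05 in 8 of the 14 alternatives. Of the fits that left out a library, only that without rhCCL20 replicate 3 was among these 8. The alternatives share their libraries, so the count does not stand for separate results. With the length and GC trend removed, added after the data were seen, 4 members had such a p (7.14%), POLE, RAD51C, FANCD2 and PRKDC, against 5.41% of all tested genes. Of 773 alternative values of single members, 7 changed sign with a shift of at least the standard error of the main difference. Shifts that kept the sign were not counted, whatever their size. The log2 fold change of BRCA2, for example, went from 0.21 to 0.047 without rhCCL20 replicate 3. The filter at 5 FPKM left 45 members.

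FPKM gives no fragment totals, so precision rests on 3 libraries a group, and 3 against 3 allows an exact p of 0.1 at best. The interval lay within 1.1-fold for 21 of 56 members, and for the others it reached beyond that size.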

Other observations

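Regulators of the G1 to S transition had a median level of 19.95 FPKM and did not pass the test. Of 16 such genes 0 rose and 0 fell, with a median log2 fold change of 0.0094, or -0.0036 without rhCCL20 replicate 3. E2F1 averaged 31.4 ± 1.7 FPKM with rhCCL20 and 32.2 ± 0.55 FPKM with vehicle (SD, n = 3 each), and the proliferation marker MKI67 averaged 25.9 ± 0.98 FPKM with rhCCL20 and 26.9 ± 0.84 FPKM with vehicle. The smallest p belonged to RB1, the E2F repressor, with 13.7, 14.5 and 17.1 FPKM in the rhCCL20 libraries and 13.2, 13.3 and 14.1 FPKM in the vehicle libraries. The groups overlapped, and rhCCL20 replicate 3 was highest (limma adjusted p = 0.937).

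Of 12 genes of platinum handling outside repair, 9 entered the test and 0 passed. Their log2 differences had a median of 0.048, and of -0.0063 without rhCCL20 replicate 3, which was the highest library for 7 of the 12. GCLM, a subunit of the enzyme that starts glutathione synthesis, had the smallest p, with 9.79, 9.46 and 10.97 FPKM with rhCCL20 and 9.25, 9.18 and 9.03 FPKM with vehicle. These groups did not overlap (log2 fold change 0.12, limma adjusted p = 0.937, and 0.065 without rhCCL20 replicate 3). SLFN11, whose loss is known for resistance to DNA-damaging drugs, averaged 0.023 FPKM over the 6 libraries, and the transporters ATP7B and ABCC2 averaged 0.443 and 0.223 FPKM. These 3 genes were under the filter.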
